A study of Mus musculus with 23 samples.

Results

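The deposited count table of mouse retinal small RNA holds 79 rows whose name ends in "unannotated", of 1356 rows in all. By its name, such a row counts reads at the hairpin of a miRNA locus that were given to none of the table's other annotation classes, which are mature (903 rows), precursor (231 rows) and stemloop (143 rows). The rows were chosen by that name alone, and all 79 held at least 1 read. The sources used here do not say how the classes were drawn, and the class is described by its name and its counts.

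The libraries came from 23 retinas at postnatal day 90, 1 library per retina. Wild-type (WT) retinas were from untreated C57B mice. All other mice were heterozygous knock-ins of P23H (P23H+/- KI), a rhodopsin change that causes retinal degeneration. They were untreated (uninjected), treated with saline, or treated with the human or the mouse rhodopsin gene in its genomic form on DNA nanoparticles (human gRHO and mouse gRho). Titles were read as cage, ear mark and eye, which is an inference. On that reading the 15 mice divide into 7 with mouse gRho, 2 with human gRHO, 1 with saline, 3 uninjected and 2 WT, and 8 of them gave both eyes. If the leading number of a title is the cage, treatment and cage cannot be told apart. On that reading the mouse gRho mice came from more than 1 cage, and the mice of each other P23H group from 1. WT titles carry no such number. Saline is 1 mouse, and the labels say nothing more on how the mice of a group were raised. The p-values below thus measure the spread between these mice, part of which may be technical.

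A miRNA gene is transcribed into a hairpin that Drosha and Dicer cut to a short duplex. An Argonaute protein keeps 1 strand of the duplex as the mature miRNA, and the other strand, the loop and the flanks are mostly degraded. Catalogues name the mature strand of a hairpin, often both strands, so reads outside a named strand can be the unnamed strand, flanking pieces, or fragments of another RNA that matches the hairpin.

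The class was small. It held 15413 reads over 23 libraries, between 186 and 1923 per library (median 378), beside 5968388 to 16048954 mature miRNA reads. That is 17.4 to 275 unannotated reads per 1000000 mature miRNA reads (RPM below), with a median of 34.6 RPM. The row sums equalled the class total of the authors' alignment table in 23 of 23 libraries. A locus with 0 reads in a library could still have stood at 0.187 to 0.503 RPM, the level that 3 reads would give. These limits, and the intervals below, cover counting error only.

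The sequences below show what the leading loci look like and which part of each is already named as mature. They are from RefSeq (GRCm38.p6, whose hairpin positions equalled those of GENCODE in 60 of 60 member loci). Of the 79 loci, 65 were found in the RefSeq table and 60 had a hairpin there. The authors' genome build is not given, so positions are those of RefSeq. In the mature sequences the capitals mark the seed, bases 2 to 8, the part that pairs with targets.
miR-6236: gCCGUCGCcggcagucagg
miR-8114: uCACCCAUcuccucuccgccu
miR-5131: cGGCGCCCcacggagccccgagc
miR-451a: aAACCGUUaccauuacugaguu
The mature miR-6236 lies at chr9:110281353-110281371 (plus strand), outside any GENCODE gene that is not a miRNA gene. The hairpin of mir-8114 lies at chr1:153899926-153900036 (plus strand) and overlaps untranslated exon sequence of Glul, which encodes glutamine synthetase, an enzyme of Mueller glia. The hairpin of mir-5131 lies at chr14:45657961-45658053 (minus strand) in an exon of Ddhd1, a phospholipase gene. Among the members with a mature sequence in RefSeq, which leaves out mir-3535, only let-7 loci shared a seed. The seed GAGGUAG was held by let-7a-1, let-7b, let-7f-1 and let-7i.

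For loci outside annotated untranslated exons, whole hairpins can be shown. Here the capitals mark the named mature strand, and the lower-case part is the rest of the hairpin. Where the counted reads lie on a hairpin is not in the table.
mir-5128: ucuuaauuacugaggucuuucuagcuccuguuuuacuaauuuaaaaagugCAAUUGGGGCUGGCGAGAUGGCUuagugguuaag
mir-1960: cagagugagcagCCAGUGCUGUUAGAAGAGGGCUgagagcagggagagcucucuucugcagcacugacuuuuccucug
mir-5136: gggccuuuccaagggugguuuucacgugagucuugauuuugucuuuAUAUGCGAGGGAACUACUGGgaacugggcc
mir-451a: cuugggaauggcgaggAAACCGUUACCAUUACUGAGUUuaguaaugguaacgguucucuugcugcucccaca
mir-5128 lies at chr2:37688201-37688284 (minus strand) in an intron of Strbp, and mir-1960 at chr5:30170739-30170816 (plus strand) in an intron of Hadhb, a gene of mitochondrial fatty acid oxidation. mir-5136 lies at chr19:8888699-8888774 (minus strand), antisense to an intron of Lbhd1. mir-451a lies at chr11:78073170-78073241 (plus strand), outside any gene that is not a miRNA gene. Another member, mir-451b, lies at the same position on the minus strand. Each of these 4 hairpins has 1 named strand, and between 69.4% and 73.7% of the hairpin lies outside it.

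That was the rule among the members. Of the 60 member hairpins, 51 (85.0%) have 1 named mature strand in RefSeq and 8 (13.3%) have at least 2. Among 667 hairpins of the table's other loci, 107 (16%) have 1 and 556 (83.4%) at least 2. Their positions relative to messenger RNAs also varied. A sense exon of a protein-coding gene was touched by 24 of 60 member hairpins (40.0%), beside 109 of 667 others (16.3%), and a sense intron alone held 14 (23.3%) beside 316 (47.4%). Median GC content was 55.5% for members and 52.3% for the others. These are descriptions of the annotation, with no test. If the class is drawn from hairpins that lack a second named strand, the first of these shares follows from how the rows were made.

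One locus made up most of the class. mir-6236 held 13559 of the 15413 reads (88.0%), mir-3535 582 (3.78%) and mir-8114 373 (2.42%), and these 3 were the only loci with reads in all 23 libraries. Together they made 94.2% of the class. Next came mir-5131 with 104 reads, mir-5128 with 82, mir-1960 with 65, mir-5136 with 41 and mir-8108 with 40. The other 12 of the leading 20 held 17 to 36 reads each. At the far end, 55 loci had fewer than 10 reads and 179 reads between them, and 24 loci were seen in a single library. The largest of those was mir-3154, with 5 reads, all in the left eye of WT mouse 2.

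**Figure D1:**
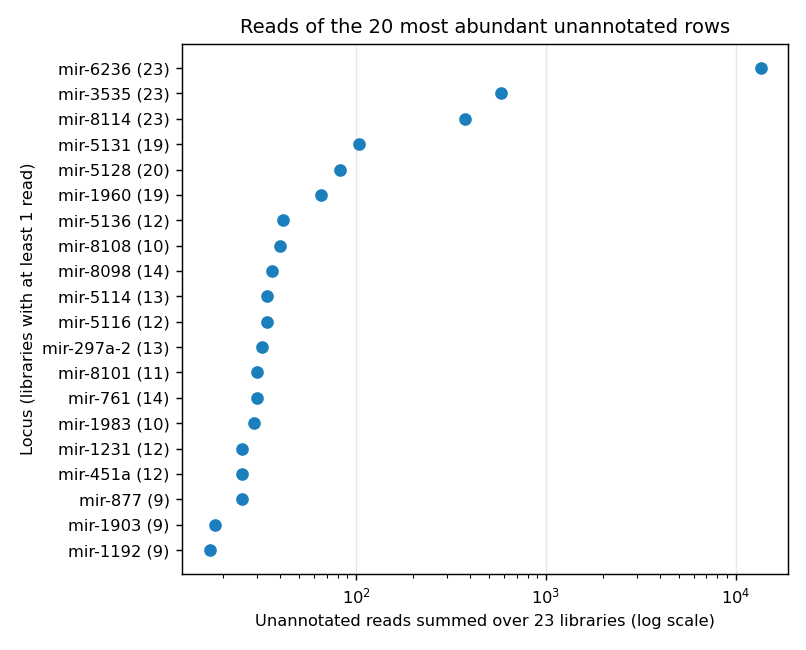
Reads of the 20 most abundant unannotated rows, summed over 23 libraries (horizontal log axis), with the number of libraries that held a read in brackets. mir-6236 stands at 13559 reads, more than 20 times the next locus, and the points fall below 50 reads from mir-5136 on.

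Other rows of the same loci tell them apart. For mir-6236 the mature row held 6 reads in all, so 99.96% of the counts in the rows of this locus were in the unannotated row. mir-5131 was alike, with 2 mature reads (98.1% unannotated), and mir-5136 with 5 (89.1%). mir-761, mir-297a-2 and mir-1192 had no other row. For mir-3535, in contrast, 10709 mature reads left 5.15% to the unannotated row, and for mir-8114 1930 left 15.9%. At mir-451a, the red blood cell miRNA that is cut by Argonaute 2 in place of Dicer, 25 unannotated reads stood beside 226471 mature ones (0.011%). In 21 of the 79 loci the unannotated row held more reads than the other rows together. In 7 of these there was no other row, so this was bound to hold. Some of the rest had few reads, as mir-8102 with 3 beside 1 mature read. The mature rows summed to between 10.4% and 19.5% of the mature reads of the alignment table, so these shares belong to the deposited rows.

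Of 26 cell-type markers listed for retinal neurons, glia, blood, muscle, liver, epithelium and vessels, 2 (7.69%) had an unannotated row. They were mir-451a and the mir-124 family, whose mir-124b row had 3 reads. The share over all loci was 8.64% (79 of 914). These shares have unlike units, since a marker can cover several loci, as mir-124 with 4 and mir-9 with 6. In the mature rows, the photoreceptor miRNA mir-183 had 417 to 7734 reads per library, and mir-9 loci of neurons 25556 to 135682. Blood and epithelial markers were present too, with mir-451a at 453 to 21795 reads and mir-205 at 78 to 509, and liver mir-122 at 1 to 131. Muscle markers had the widest range, with the mir-1a loci together at 25 to 1457787 reads (median 156930), mir-206 at 1 to 63451 (median 4) and mir-133a loci at 654 to 12106. Single rows jumped between libraries, as that of mir-1a-2 from 2 to 984970. The part of muscle RNA in the class levels was not tested. mir-486a stood at 0 in every library. Per depth, mir-183 was lowest in the right eye of mouse gRho mouse 1 (42.4 RPM) and in uninjected mouse 2 (138 RPM), beside 158 to 746 RPM in the other 21 libraries. In whole retinas, fewer cells of a type and less RNA per cell cannot be told apart.

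mir-6236 varied widely between libraries, and it did so with the ribosomal RNA (rRNA) content. Its level ranged from 12.3 to 266 RPM, with a median of 23.9. The 6 libraries in which over 2% of aligned reads were rRNA (3.00% to 6.2%) held 127 to 266 RPM. The 17 others (0.201% to 0.878% rRNA) held 12.3 to 77.7, and the 2 sets did not overlap. The rRNA-rich libraries were those of uninjected mouse 2, both eyes of uninjected mouse 3, the left eye of mouse gRho mouse 2, the right eye of mouse gRho mouse 3, and mouse gRho mouse 6.

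The ratio to rRNA reads had a narrower range in the rRNA-rich libraries. The rRNA-rich libraries held 2.50 to 3.88 reads of mir-6236 per 1000 rRNA reads (median 3.60), and the other 17 held 2.80 to 19.1 (median 4.19). The left eye of the saline mouse stood highest at 19.1. Mouse gRho mouse 2 (right eye, 9.15), WT mouse 2 (8.93) and uninjected mouse 1 (left eye, 7.02) came next. The part of rRNA fragments in the reads counted at mir-6236 was not tested. The other 78 loci together overlapped between these sets, with 7.10 to 11.3 RPM in the rRNA-rich libraries and 3.80 to 15 in the others.

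**Figure D2:**
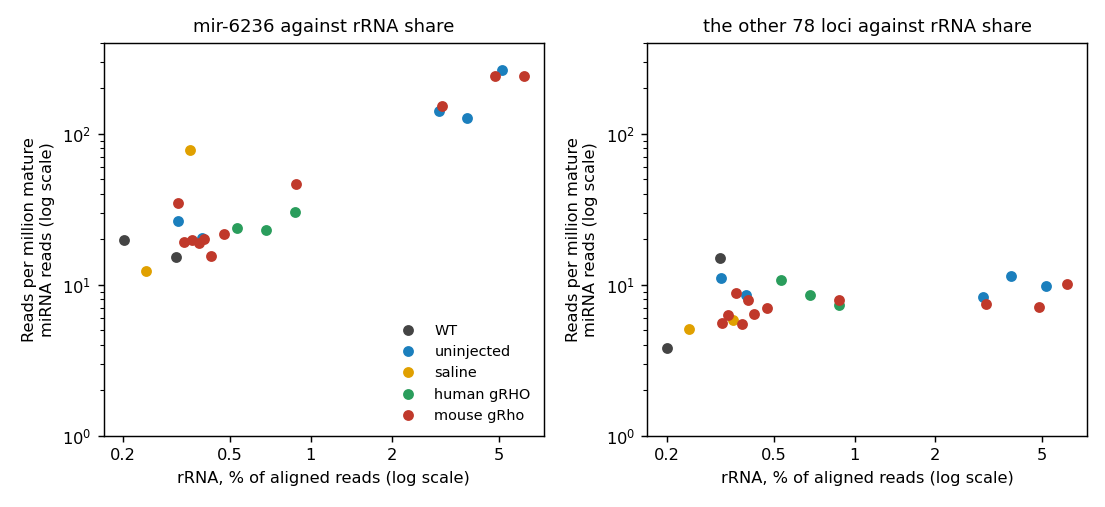
RPM of mir-6236 (left) and of the other 78 loci (right) against the share of rRNA among aligned reads, all on log axes, with 1 point per library coloured by group. The 6 libraries above 2% rRNA lie between 127 and 266 for mir-6236 and between 7.10 and 11.3 for the other loci.

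Accordingly, mir-6236 made 91.8% to 97.1% of the class in the rRNA-rich libraries and 50.5% to 93.0% in the others. Lowest was WT mouse 1 with 148 of 293 reads, where mir-3535 was high.

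**Figure D3:**
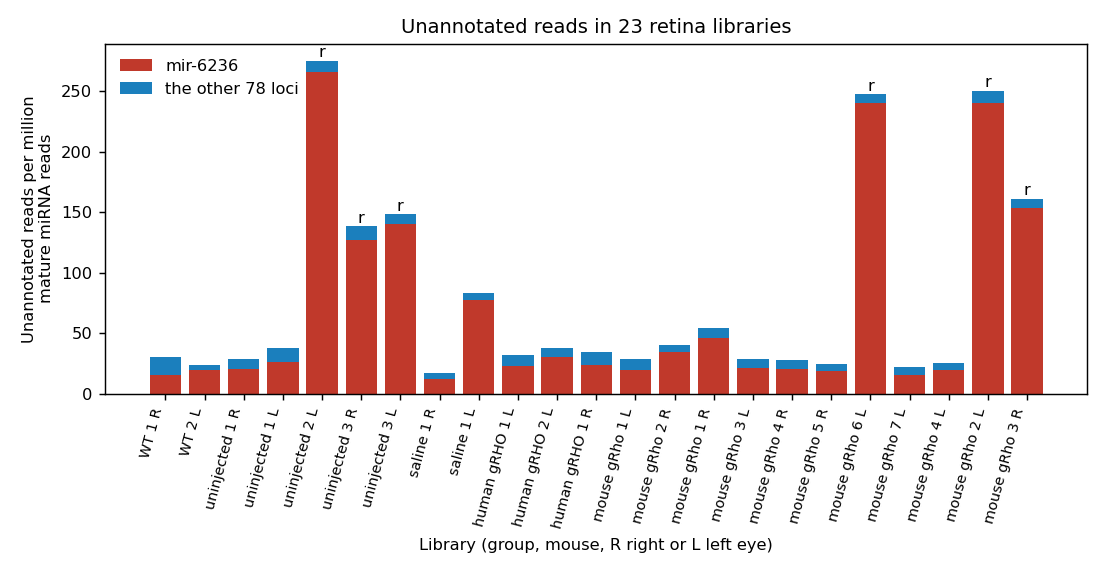
RPM of unannotated reads in the 23 libraries, split into mir-6236 (red) and the other 78 loci (blue), with r above libraries that have over 2% rRNA. The highest bar without r is the left eye of the saline mouse at 83.5, and all bars with r stand above 138.

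The first comparison asked whether these rows differ with the rhodopsin mutation. The class stood at 30.4 and 23.6 RPM in WT mice 1 and 2, and at 33.1, 275 and 144 in uninjected mice 1, 2 and 3. All uninjected values lay above both WT values. The means were 151 ± 121 (SD, n = 3) and 27.0 ± 4.8 (SD, n = 2), a difference of 124 (exact permutation test, two-sided p = 0.20, where 0.10 is the smallest possible, adjusted p = 0.60 over 18 tests). Uninjected mice 2 and 3 are the rRNA-rich ones, and without their libraries the difference was 6.17, with 1 uninjected mouse left. It was 61.4 without uninjected mouse 2, which is also 1 of the libraries lowest in mir-183. Per 1000000 rRNA reads its sign turned, with 4946 in uninjected and 9426 in WT mice.

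Counts of single rows were tested with edgeR (quasi-likelihood test) across 442 rows of all classes, and 5 of the 79 members had enough reads to enter, namely mir-6236, mir-3535, mir-8114, mir-5131 and mir-5128. A count over these 5 does not speak for the class. In uninjected against WT mice 0 of 5 passed an adjusted p of 0.05, where 1.58% of all rows did (0.905% lower in uninjected mice). By DESeq2 the count was also 0, where 12 of 442 rows passed. An unadjusted p under 0.05 was reached by 1 member, mir-3535, and by 76 of 442 rows (17.2%), so 1 of 5 is near the share over all rows. The median log2 fold change of the 5 members was 0.65, beside 0.02 over all rows, where the median SE of a row was 0.62.

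mir-3535 had the smallest p of them. Its unannotated row held 8.81 RPM in WT mouse 1 (exact Poisson 95% interval 7.04 to 10.9) and 1.81 in WT mouse 2 (1.21 to 2.60). Uninjected mice 1 to 3 held 2.71, 2.15 and 1.94. WT mouse 1 was thus far above the rest, and WT mouse 2 lay below all 3 uninjected mice. The log2 fold change of -1.47 (SE 0.49, edgeR adjusted p = 0.147) did not pass, and without WT mouse 1 it was -0.19. The mature row of this locus differed by -0.79 (SE 0.23, edgeR adjusted p = 0.125). Set against depth, that row was also higher in WT mouse 1, at 73.3 RPM beside 44.5 in WT mouse 2, 1.65-fold. The unannotated row made 10.7% and 3.9% of both rows in these mice. For mir-6236 the log2 fold change was 2.59 (SE 1.36, edgeR adjusted p = 0.38), from 15.3 and 19.8 RPM in WT to 23.4, 266 and 134 in uninjected mice. Without the rRNA-rich libraries it was 0.02, and without the 2 libraries lowest in mir-183 it was 1.62.

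Treatment with mouse gRho was set against no injection. The 7 mouse gRho mice held 21.9 to 248 RPM (median 41.2, mean 78.8 ± 81.1 SD), and they overlapped the uninjected mice (151 ± 121 SD, n = 3). The difference of -71.9 was within that spread (exact permutation test, two-sided p = 0.275, adjusted p = 0.60). It was -9.55 without uninjected mouse 2, -131 without uninjected mouse 1, -11.4 without the 2 libraries lowest in mir-183 and -2.62 without the rRNA-rich libraries. Of the 5 members tested 0 passed (edgeR, with 0% of all rows called, and 0 with DESeq2). An unadjusted edgeR p under 0.05 was reached by 0 members, beside 22 of 442 rows (4.98%). mir-8114 differed by -0.46 (SE 0.45, edgeR adjusted p = 0.959) and mir-6236 by -0.83 (SE 0.89, edgeR adjusted p = 0.978). The latter turned to 0.13 without the rRNA-rich libraries, to 0.11 without uninjected mouse 2 and to 0.10 without the 2 libraries lowest in mir-183. With such standard errors, this does not show that the rows were alike.

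The 78 loci outside mir-6236 together held 9.74, 9.74 and 9.76 RPM in the uninjected mice. The mouse gRho mice held 5.47 to 8.35 (median 7.0), so the mice of these groups did not overlap, though single eyes did. The means were 9.75 ± 0.012 (SD, n = 3) and 6.92 ± 0.88 (SD, n = 7). The difference of -2.83 had the smallest p the test allows (exact permutation test, two-sided p = 0.00833, adjusted p = 0.15 over 18 tests). With these group sizes none of the 18 tests could reach an adjusted p under 0.05, so the adjusted value cannot decide. The uninjected values lay closer than their own counting error. For uninjected mouse 2, with 68 reads, the exact Poisson 95% interval ran from 7.56 to 12.3, which covers mouse gRho mouse 1 at 8.35. The value of mouse gRho mouse 3, the next highest at 7.24, lay below that interval, as did those of the rest of its group. These values have counting error too. The interval of mouse gRho mouse 3 ran from 6.13 to 8.48. Of this group only that of mouse 5 (4.10 to 7.16) ended below 7.56, so the others overlapped the interval of uninjected mouse 2. The intervals of uninjected mice 1 and 3 began at 8.56 and 8.27. The saline mouse stood at 5.43, human gRHO mice at 9.63 and 7.37, and WT mice at 15 and 3.80. WT mice alone thus spanned the range of all other groups. Of single eyes, mouse gRho mouse 2 held 10.1 RPM in its rRNA-rich left eye and 5.59 in the right. Uninjected mouse 3 held 8.25 in the left eye. For these 78 loci the rRNA-rich libraries had a median of 8.99 RPM and the others 7.37. The part of rRNA content in the difference between mouse gRho and uninjected mice was not tested.

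**Figure D4:**
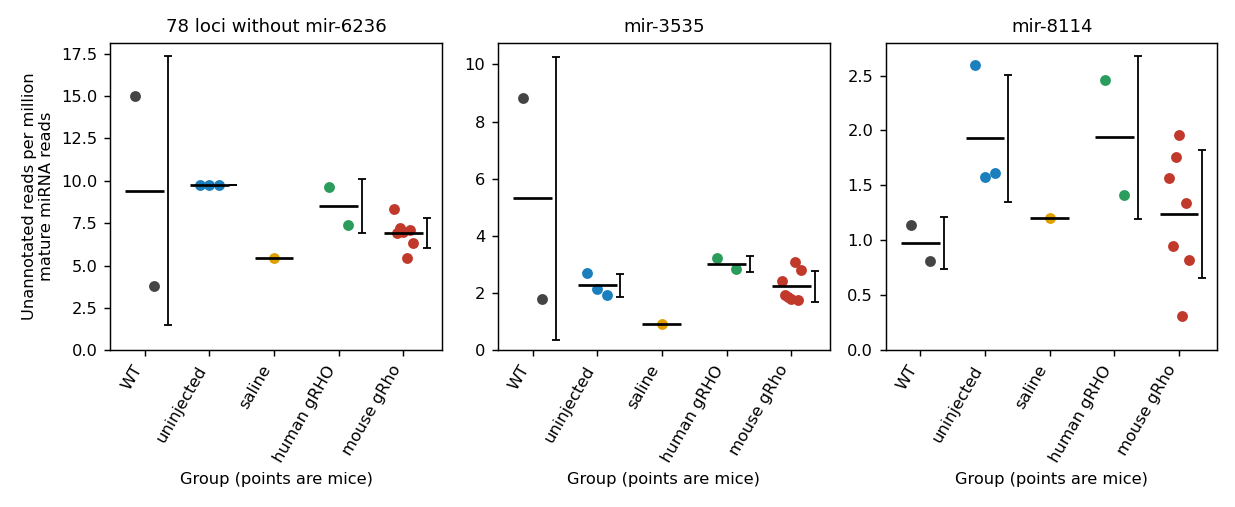
RPM of unannotated reads per mouse for the 78 loci without mir-6236, for mir-3535 and for mir-8114, with points for mice, lines for group means and bars for 1 SD where a group has more than 1 mouse. WT mouse 1 stands apart for mir-3535 at 8.81, and the uninjected mice lie together at 9.74 to 9.76 in the first panel.

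Human gRHO retinas held 33.1 and 37.4 RPM (35.3 ± 3.0 SD, n = 2), near the lowest uninjected mouse at 33.1. The difference from uninjected mice was -115 (exact permutation test, two-sided p = 0.40, smallest possible 0.10, adjusted p = 0.60), and without the rRNA-rich libraries it was 2.15. It was -53.0 without uninjected mouse 2 and -174 without uninjected mouse 1. Of 5 members 0 passed (edgeR, with 0% of all rows called, and 0 with DESeq2). An unadjusted edgeR p under 0.05 was reached by 0 members, beside 18 of 442 rows (4.07%). mir-6236 differed by -2.25 (log2, SE 1.33, edgeR adjusted p = 0.895), by 0.26 without the rRNA-rich libraries and by -1.29 without the 2 libraries lowest in mir-183. mir-3535 stood at 3.22 and 2.83 RPM, above all 3 uninjected mice, and differed by 0.54 (log2, SE 0.49, edgeR adjusted p = 0.895).

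Saline was given to 1 mouse. Its class level was 49.1 RPM, -102 from the uninjected mean (exact permutation test, p = 0.75, smallest possible 0.25, adjusted p = 0.75), and 15.9 above uninjected mouse 1, the mouse left without the rRNA-rich libraries. It was -39.3 without uninjected mouse 2 and -160.4 without uninjected mouse 1. The edgeR fit takes this mouse to vary like the others, so no count over the members is given here. mir-3535 was lowest of all mice here at 0.929 RPM, with 4 reads in the right eye and 16 in the left, and differed by -1.04 (log2, SE 0.68, edgeR adjusted p = 0.895). mir-6236 differed by -1.44 (log2, SE 1.69, edgeR adjusted p = 0.895), by 1.06 without the rRNA-rich libraries and by -0.48 without the 2 libraries lowest in mir-183.

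The constructs were also compared with each other. Human gRHO minus mouse gRho was -43.5 RPM (exact permutation test, n = 2 and 7, p = 0.583, adjusted p = 0.70), and 4.77 without the rRNA-rich libraries, which in this comparison are all of the mouse gRho group. It was -15.4 without mouse gRho mouse 6. Of 5 members 0 passed (edgeR, with 0% of all rows called, and 0 with DESeq2). An unadjusted edgeR p under 0.05 was reached by 0 members, beside 13 of 442 rows (2.94%). mir-6236 differed by -1.42 (log2, SE 1.18) and mir-8114 by 0.60 (log2, SE 0.52), each with an edgeR adjusted p of 0.995. mir-8114 stood at 2.46 and 1.41 RPM in the human gRHO mice and at 0.31 to 1.96 (median 1.34) in the mouse gRho mice, so the groups overlapped.

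Against WT, mouse gRho retinas held 51.8 RPM more (exact permutation test, n = 7 and 2, p = 0.444, adjusted p = 0.615). Per 1000000 rRNA reads the sign turned, with 4693 in mouse gRho and 9426 in WT mice. The difference was 23.7 RPM without mouse gRho mouse 6. Of 5 members 0 passed (edgeR, where 2.71% of all rows did, 2.04% lower in mouse gRho mice). By DESeq2 the count was also 0, where 17 of 442 rows passed. An unadjusted p under 0.05 was reached by 1 member and by 76 of 442 rows (17.2%), so 1 of 5 is near the share over all rows. The member was mir-3535, at 1.74 to 3.10 RPM (median 1.94) in mouse gRho mice, with a log2 fold change of -1.35 (SE 0.41, edgeR adjusted p = 0.0907). It rested on WT mouse 1. Without that mouse it was -0.07, and without WT mouse 2 it was -2.06 and passed (edgeR adjusted p = 0.0276). The mature row of mir-3535 was lower in mouse gRho by 0.75 on the log2 scale (log2 fold change -0.75, SE 0.20, edgeR adjusted p = 0.0496). In that row too only WT mouse 1 stood apart, at 73.3 RPM, above all mouse gRho mice. WT mouse 2, at 44.5 RPM, lay within their range. At like depth, WT mouse 1 held 707 reads of that row (9645844 mature reads). The left eye of mouse gRho mouse 1 held 483 (9939390 mature reads), and mouse gRho mouse 5 held 375 (9685979). A fit of that row without WT mouse 1 is not given here. mir-6236 differed by 1.76 (log2, SE 1.22, edgeR adjusted p = 0.446), and by 0.15 without the rRNA-rich libraries, where the class difference was 3.56 RPM. Comparisons that name the same group share its mice and are not independent of each other.

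Right and left retinas of the same mouse differed by up to 6.21-fold in the class. In mouse gRho mouse 2 the class held 250.7 RPM on the left and 40.4 on the right, and in mouse gRho mouse 3 it held 161 on the right and 28.6 on the left, 5.63-fold apart. Their rRNA shares differed in the same direction, by 19.3-fold and 6.50-fold. In uninjected mice 1 and 3 and human gRHO mouse 1, where mir-6236 ratios were small (log2 -0.37, -0.14 and 0.05), the rRNA ratios had the opposite sign (0.31, 0.35 and -0.36). In the saline mouse the left eye held 83.5 and the right 17.4, 4.80-fold apart, while rRNA shares were 0.354% and 0.243%, 1.46-fold apart. There the reads of mir-6236 were 802 and 138 at close depths of 10327298 and 11208297 mature reads. In uninjected mouse 3, human gRHO mouse 1 and mouse gRho mouse 4 the eyes were within 1.10-fold.

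The right eye was higher in 4 of 8 mice, with a mean log2 ratio of -0.21 ± 1.65 (SD, n = 8, exact sign-flip permutation test, two-sided p = 0.781). For the 78 loci outside mir-6236 it was -0.04 ± 0.44 (exact sign-flip permutation test, p = 0.797, n = 8), and the eyes differed by at most 1.80-fold. With a term for the mouse, edgeR tested 3 members (mir-6236, mir-3535 and mir-8114) and 0 passed (0% of 373 rows, 0 members with DESeq2). An unadjusted edgeR p under 0.05 was reached by 0 members, beside 12 of 373 rows (3.22%). mir-8114 had the smallest p, at -0.58 (log2, right minus left, SE 0.31, edgeR adjusted p = 0.968). Its widest gap in reads was in uninjected mouse 1, with 51 on the left and 14 on the right. That is 34.7% and 10.9% of the locus' mature and unannotated reads, and 4.16 and 1.10 RPM. As a ratio the gap was wider in mouse gRho mouse 2, with 2.01 RPM on the left and 0.496 on the right. mir-6236 differed by -0.34 (log2, SE 0.57, edgeR adjusted p = 0.968).

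**Figure D5:**
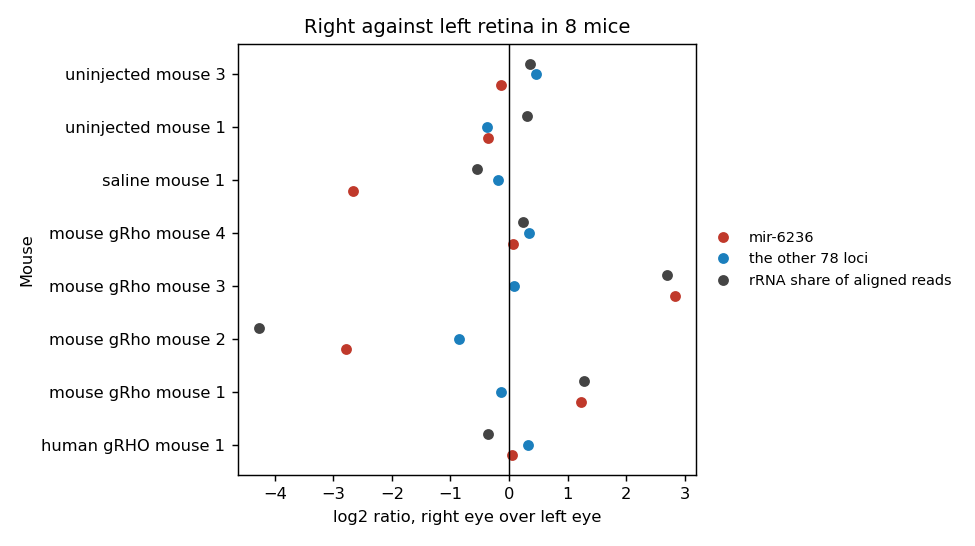
The log2 ratio of right over left eye in 8 mice for mir-6236, for the other 78 loci (both from RPM) and for the rRNA share of aligned reads. The rRNA share and mir-6236 have the same sign in 5 mice and opposite signs in 3 (uninjected mice 1 and 3 and human gRHO mouse 1), and in the saline mouse mir-6236 lies at -2.66 beside an rRNA ratio of -0.54.

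Of the remaining leading loci, mir-5131 and mir-5128 entered the edgeR fit of the 6 group comparisons. The log2 fold changes of mir-5131 ran from -0.62 to 0.51 (SE 0.81 to 1.33, smallest edgeR adjusted p = 0.863), and those of mir-5128 from -0.28 to 1.24 (SE 0.73 to 1.19, smallest edgeR adjusted p = 0.60). The loci after them had too few reads to enter and are given as counts. mir-5131 held 0 to 12 reads per library and was seen in 19 of 23, with its highest count in the right eye of uninjected mouse 3. mir-5128 held 0 to 12 and was seen in 20, and mir-1960 held 0 to 8 and was seen in 19, with 0 reads in both WT libraries. Both WT libraries also held 0 reads of mir-5136, mir-5116, mir-761, mir-1231, mir-1903, mir-1192 and mir-8104. mir-5136 had 41 reads in 12 libraries, 13 of them over both eyes of uninjected mouse 1. mir-8108 had 40 reads in 10 libraries and mir-8098 36 in 14. mir-5114, in an exon of the fatty acid desaturase gene Scd2, had 34 reads in 13, and mir-5116 had 34 in 12. mir-297a-2 had 32 in 13.

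Of the rest, mir-8101, in an exon of the histone deacetylase gene Hdac5, had 30 reads in 11 libraries, and mir-761 had 30 in 14. mir-1983 had 29 in 10, beside 52513 reads in its mature row. mir-1231 had 25 in 12, and mir-877, whose hairpin is an intron of Abcf1 released by splicing, had 25 in 9. mir-451a had 25 in 12, and 9 of them came from the right eye of mouse gRho mouse 3. That library also had 19767 mature mir-451a reads, while the left eye of the same mouse had 21795 and 3 unannotated reads. mir-1903 had 18 reads in 9 libraries, in an exon of the neuropilin gene Nrp1, and mir-1192, in an intron of Klf9, had 17 in 9, as many reads as mir-8104. In none of these loci did a library hold more than 12 reads.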

How the data were processed

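Values are counts of reads as the authors deposited them, in a matrix of loci by annotation class and in a summary of alignment classes, for 23 libraries. Per the labels' protocols, RNA came from Trizol extraction and the library kit was NEXTflex small RNA v3. The submitters' processing notes name DESeq2, while for the aligner, counter, genome build and annotation nothing is given in the sources used here. No column was left unused (0). Eyes of 1 mouse were summed to 15 mice, and levels (RPM) are reads per 1000000 mature miRNA reads of the alignment summary. Depth ranged from 5968388 to 16048954 mature reads per library.

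Counts were tested with edgeR 4.0.16 in R 4.3.3 (quasi-likelihood, robust, 5 groups in 1 fit, TMM factors on the mature reads) over rows that reached 10 counts in 3 or more mice (3 libraries for the eyes, with a term for the mouse), adjusted by Benjamini-Hochberg over all rows tested. As rows may jump between 2 levels, 65 mature rows with a highest count of at least 30 and a gap of at least 3.5 in sorted log2(RPM + 0.5), or 2 with at least 2 libraries on each side, were set aside, and 0 unannotated rows met that rule. Class levels were compared by exact permutation over mice. Alternatives were DESeq2 1.42.0, other scalings, filters and library sets. The named loci are the 20 with most reads, and by fold change the 2 smallest p per comparison. The members and lists were chosen with earlier results of these data known. The edgeR step was tested on simulated data.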

Additional observations from a re-analysis of the deposited data

Results flagged for a closer look

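Among the 7 mouse gRho mice, mouse 6 stood apart from the other mice of its group, by the gap to its nearest neighbour relative to the range of the group. Its class level was 247.6 unannotated reads per 1000000 mature miRNA reads (RPM) and its mir-6236 level 240.5 RPM, where the next mouse had 103 and 95.9. This mouse gave 1 library, with 4.85% rRNA among aligned reads. Its mir-6236 reads per 1000 rRNA reads were 3.69, within the range of the group (3.11 to 4.49), and its other 78 loci stood at 7.10 RPM, near the group's median of 7.0. In all 8 sets of values were checked in this way, and chance flags about 1 in 20.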

How the results depend on the processing

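Of the 6 group differences of the class, uninjected against WT and mouse gRho against uninjected kept their sign without the rRNA-rich libraries (6.17 and -2.62 RPM) and without mir-6236 (0.33 and -2.83), and the other 4 turned in at least 1 of these. Without libraries over 2% rRNA they were 2.15 RPM for human gRHO and 15.9 for saline against uninjected, and 4.77 for human against mouse gRho. Without mir-6236 they were 1.58 for human against mouse gRho and -2.50 for mouse gRho against WT, and for mouse gRho against uninjected p was 0.00833 (exact permutation). With rRNA reads as the denominator, chosen after seeing the data, they were -4479 reads per 1000000 rRNA reads for uninjected and -4733 for mouse gRho against WT (exact permutation p = 0.20 and 0.0278), and 9406 for saline against uninjected. Leaving out 1 mouse moved the right over left mean (log2) between -0.60 and 0.14, above 0 without saline mouse 1 (0.083) or without mouse gRho mouse 2 (0.14). In the group comparisons leaving out 1 mouse turned no sign but moved the differences by up to 7.53-fold. The number of members called stayed at 0 in every alternative, except that it ran from 0 to 1 for mouse gRho against WT when 1 mouse was left out. The fold change of mir-6236 turned in sign without the rRNA-rich libraries for mouse gRho (0.13), human gRHO (0.26) and saline (1.06) against uninjected and for human against mouse gRho (0.13). For mouse gRho against uninjected it was also 0.10 without the 2 libraries lowest in mir-183 (uninjected mouse 2 and the right eye of mouse gRho mouse 1) and ran from -1.54 to 0.11 when 1 mouse was left out (0.11 without uninjected mouse 2), for saline 0.036 with the class total as library size, and for right against left it ran from -0.71 to 0.03 (0.028 without mouse gRho mouse 2, 0.012 without saline mouse 1). The cause of these turns was not tested. The labels share no replicate numbers between groups, so the pairing is that of the eyes. Dropping the term for the mouse (no replicate block) left 0 members called between the eyes. With 186 to 1923 reads per library, depth limits every locus but mir-6236.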
